A study of Drosophila melanogaster with 8 samples.

Results

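The antioxidant defence of Drosophila melanogaster was followed through 10 genes in larval hemocytes on 2 diets: catalase (Cat), the superoxide dismutases Sod1 and Sod2, the peroxiredoxin Prx2 (also called Jafrac1), the thioredoxin Trx2 (also called Trx-2), the thioredoxin reductase Trxr1, the subunits Gclc and Gclm of glutamate-cysteine ligase, the transcription factor gene cnc and its inhibitor gene Keap1. They were taken by FlyBase identifier from a deposited table of read counts, and all 10 were among its 11769 genes. All 10 also passed the low-count filter that left 7844 genes for testing. The cells were GFP-positive hemocytes, labelled as macrophages of wild-type larvae in the third instar, sorted from animals with the reporter hmlΔ>2xeGFP, which marks cells through the Hemolectin promoter. The control diet (CD) was a standard sucrose-yeast medium, and the high-sugar diet (HSD) was that medium with a 10x sucrose supplement. Larvae of both groups were kept at 25 °C and bled at 96 h after egg laying, 5 larvae to a collection, and 20000 cells were sorted per replicate. The libraries were 4 per diet, numbered 1, 3, 4 and 5 for CD and 1 to 4 for HSD.

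Superoxide dismutases turn superoxide into hydrogen peroxide, which catalase splits directly and peroxiredoxins reduce with electrons from thioredoxin. Thioredoxin is recharged by thioredoxin reductase at the cost of NADPH, and in flies the same system also keeps glutathione reduced, since they lack a glutathione reductase. Glutamate-cysteine ligase makes the first and limiting step of glutathione synthesis. The long protein form of cnc, CncC, is the fly counterpart of mammalian Nrf2 and switches on detoxification and antioxidant genes, while Keap1 binds it and holds it back.

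The total count per library ran from 20817891 to 24733521. CD replicate 1 stood apart from the other CD libraries. It was the highest or the lowest CD library for 10 of the 10 antioxidant genes, highest for 7 and lowest for Gclc, cnc and Keap1, and it was extreme in the same sense for 73.5% of all tested genes. HSD replicate 4 was the highest HSD library for 6 of the 10 genes and the lowest for 0, against 33.8% and 31.3% of all tested genes. The plasmatocyte markers (Hml, NimC1, eater, Sr-CI, crq, Col4a1, vkg and Pxn), which mark mature macrophages, were all detected, and their summed level was 54097 to 62307 CPM (counts scaled to library size, which TMM scaling corrects for composition) on CD and 70009 to 80410 CPM on HSD. Markers of crystal cells, the hemocytes that make prophenoloxidase, summed to 23205 to 27476 CPM on CD and 30186 to 45841 CPM on HSD. Of these 8 crystal cell markers 7 rose and 0 fell, and of the 8 plasmatocyte markers 6 rose and 0 fell. For comparison, the edgeR test described below called 14.4% of all tested genes higher and 11.6% lower. The 6 lamellocyte markers summed to 1023 to 1354 CPM on CD and 1296 to 1521 CPM on HSD, and 5 of them rose. Most of that sum was cher, which was not called (means of 1008 CPM on CD and 1076 CPM on HSD, edgeR adjusted p = 0.540). On CD and HSD, ItgaPS5 averaged 188 and 328 CPM and PPO3 10.4 and 17.6 CPM. The scarce markers averaged 0.682 and 3.43 CPM (mdu), 0.204 and 6.04 CPM (atilla) and 0.0218 and 3.26 CPM (ItgaPS4). The cuticle markers summed to 7.96 CPM in CD replicate 1, 6.24 CPM in HSD replicate 4 and at most 2.28 CPM in the other libraries. The gut markers summed to at most 5.25 CPM, in HSD replicate 4. The fat body markers summed to 32.5 and 43.1 CPM in CD replicates 1 and 3 and to at most 15.9 CPM in the others.

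On the high-sugar diet Trx2, Prx2 and Sod1 rose, Cat fell, and Trxr1, Sod2, Gclc, Gclm, cnc and Keap1 did not pass the test. That is 3 genes higher and 1 lower of 10 (edgeR quasi-likelihood test with Benjamini-Hochberg adjustment over all 7844 tested genes, threshold 0.05), where 26.0% of all tested genes were called, 14.4% higher and 11.6% lower. For 4 of the 10 genes, Trx2, Prx2, Cat and Trxr1, the diets shared no part of their ranges over libraries, against 28.0% of all tested genes. The median log2 fold change of the 10 was 0.12, and that of all tested genes was −0.01. In pooled cells, fewer cells of a type and less RNA per cell cannot be told apart. The part of the crystal cell, plasmatocyte and lamellocyte shares in these differences was not tested.

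The thioredoxin gene Trx2 rose most of the 10 genes. Its level was 266, 242, 247 and 257 CPM in CD replicates 1, 3, 4 and 5, and 456, 432, 415 and 529 CPM in HSD replicates 1 to 4. The HSD libraries were all above the CD libraries, and the highest Trx2 level was in HSD replicate 4. That library had the lowest crystal cell, plasmatocyte and lamellocyte marker sums of its diet. It is 1 library, and the part of these cell types in the Trx2 difference was not tested. The means were 253 ± 10.8 CPM on CD and 458 ± 50.4 CPM on HSD (SD, n = 4 each), a 1.81-fold rise with a log2 fold change of 0.86 and a standard error of 0.0726 (edgeR adjusted p = 3.19e-06). Trx2, the cytosolic electron donor of the peroxiredoxins, lies on chromosome 2L from 9613166 to 9616404 in dm6, with 2 annotated transcripts.

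The peroxiredoxin gene Prx2, whose enzyme reduces hydrogen peroxide with electrons from thioredoxin, rose 1.37-fold. It stood at 429.8, 411, 412 and 402 CPM in CD replicates 1, 3, 4 and 5 and at 569.8, 557, 583 and 559 CPM in HSD replicates 1 to 4. The diets were separated by a gap wider than the whole spread within either of them. The means were 414 ± 11.6 and 567 ± 11.7 CPM (SD, n = 4 each), and the log2 fold change was 0.45 ± 0.0472 (standard error, edgeR adjusted p = 1.57e-05). The gene lies on X from 13329824 to 13331994.

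Catalase, which splits hydrogen peroxide without thioredoxin, went the other way. Cat stood at 350.4, 318, 321 and 317 CPM in CD replicates 1, 3, 4 and 5 and at 244, 267, 278 and 272 CPM in HSD replicates 1 to 4. Every HSD library was below every CD library, and the CD level was highest in CD replicate 1. Cat fell by 0.30 on the log2 scale, with a standard error of 0.0554, with means of 327 ± 15.8 CPM on CD and 265 ± 14.7 CPM on HSD (SD, n = 4 each; edgeR adjusted p = 0.00148). The gene lies on 3L from 18822604 to 18828188 and has 1 annotated transcript. Trx2, Prx2 and Cat kept their direction and their call without CD replicate 1, without HSD replicate 4 and without both.

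**Figure D1:**
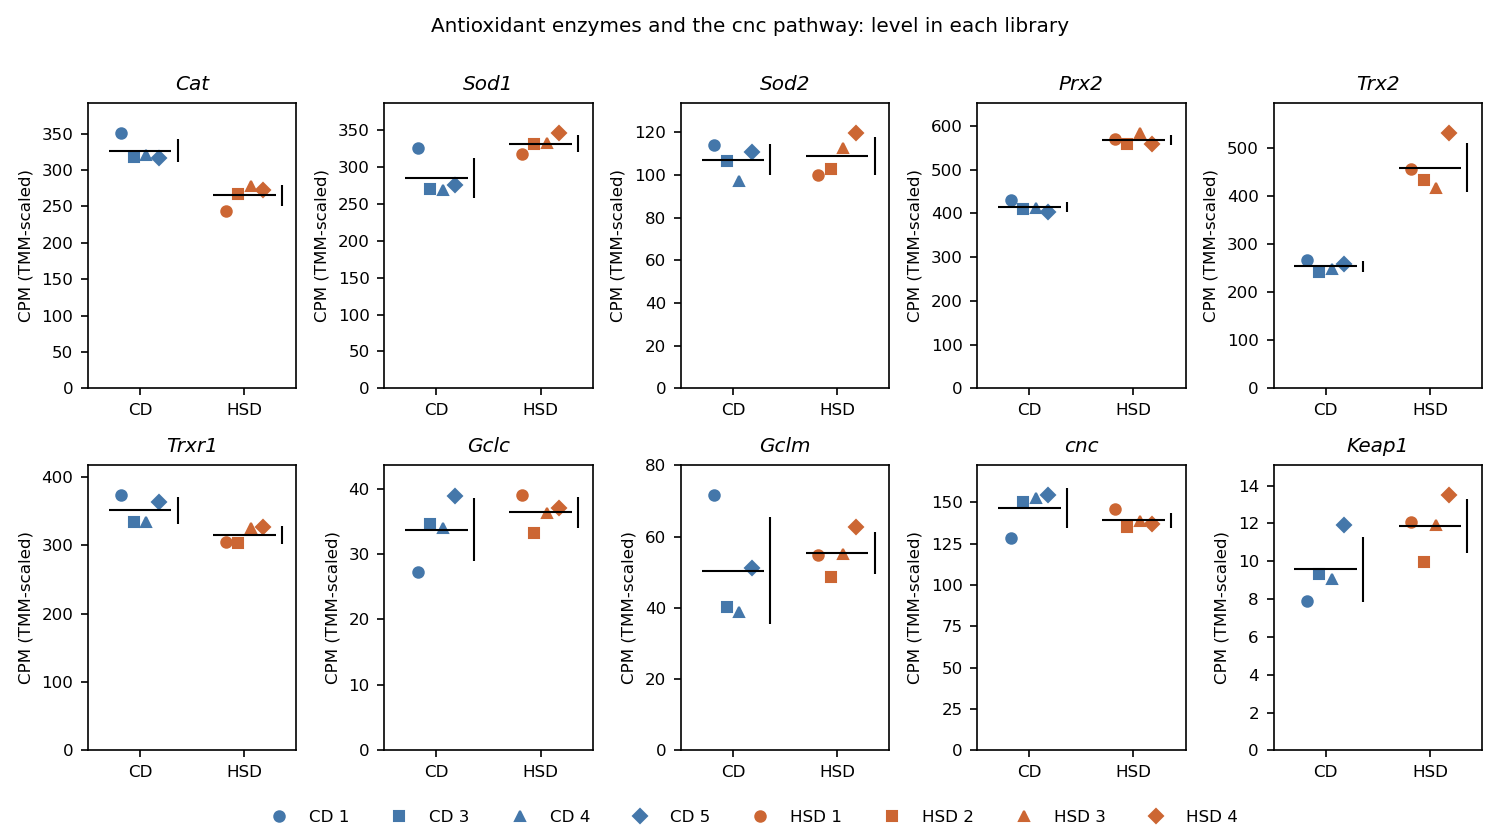
Level of each gene in CPM (TMM-scaled, vertical axes from 0) in the 4 CD and 4 HSD libraries, with each diet's mean as a horizontal line and ± 1 SD as a vertical bar. The diets are apart for Trx2, Prx2, Cat and Trxr1, and CD replicate 1 (circle) is at an end of the CD libraries in every panel.

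Of the superoxide dismutases, the cytosolic Sod1 rose and the mitochondrial Sod2 did not pass. Sod1 stood at 325, 270.1, 269 and 276 CPM in CD replicates 1, 3, 4 and 5 and at 317, 331, 333 and 346 CPM in HSD replicates 1 to 4. CD replicate 1 lay inside the HSD range and the other CD libraries lay below it. The means were 285 ± 27.0 and 332 ± 11.5 CPM (SD, n = 4 each), a 1.16-fold rise with a log2 fold change of 0.22 and a standard error of 0.0646 (edgeR adjusted p = 0.0246). The call ended on leaving out any single one of CD replicates 3, 4 and 5 and HSD replicates 2, 3 and 4 (with edgeR, adjusted p from 0.0560 to 0.0859) and when scaled by library size alone (log2 fold change 0.06, edgeR adjusted p = 0.406). Without CD replicate 1 the log2 fold change was 0.30 (edgeR adjusted p = 0.00014; range of the alternatives 3.86e-05 to 0.406). Sod1 lies on 3L from 11112281 to 11113740.

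Sod2, the manganese enzyme of the mitochondrial matrix, covered 97.1 to 114 CPM on CD and 100.1 to 119 CPM on HSD. The ranges overlapped almost wholly, with a log2 fold change of 0.02 and a standard error of 0.0670 (edgeR adjusted p = 0.851). Sod2 lies on 2R from 16772785 to 16773915.

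The reductase gene Trxr1, whose enzyme recharges Trx2, was not called although its diets did not overlap. It stood at 373, 334, 335 and 363 CPM in CD replicates 1, 3, 4 and 5 and at 305, 303, 325 and 327 CPM in HSD replicates 1 to 4. The lowest CD library was only slightly above the highest HSD library. The log2 fold change was −0.16 ± 0.0546 (standard error, edgeR adjusted p = 0.0524), just above the threshold. Other settings put it under the threshold, among them DESeq2 (adjusted p = 0.0169), RLE scaling (edgeR adjusted p = 0.0456) and library size alone (log2 fold change −0.32, edgeR adjusted p = 0.000534; range of the alternatives 0.000534 to 0.493). Trxr1 lies on X from 8242528 to 8248033 and makes a cytosolic and a mitochondrial form, which a count per gene does not separate. Its exons share 13.8% of their length with sni on the opposite strand, and the strand setting of the counting is not given in the sources used here. The gene sni stood at 32.5 ± 2.85 CPM on CD and 33.7 ± 2.49 CPM on HSD (SD, n = 4 each).

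Neither subunit of glutamate-cysteine ligase passed the test. The catalytic subunit gene Gclc stood at 27.3, 34.7, 34.0 and 38.8 CPM in CD replicates 1, 3, 4 and 5 and at 38.9, 33.3, 36.3 and 37.0 CPM in HSD replicates 1 to 4. The diets overlapped, with a log2 fold change of 0.11 and a standard error of 0.0937 (edgeR adjusted p = 0.437). It was 0.028 without CD replicate 1 and 0.18 without CD replicate 5. The modifier subunit gene Gclm stood at 71.5, 40.3, 38.7 and 51.3 CPM in CD replicates 1, 3, 4 and 5 and at 54.9, 48.6, 55.0 and 62.8 CPM in HSD replicates 1 to 4.

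For Gclm, CD replicate 1 was above every HSD library, while CD replicates 3 and 4 were below all of them. The log2 fold change was 0.14 ± 0.199 (standard error), the largest error among the 10 genes (edgeR adjusted p = 0.668). Without CD replicate 1 it was 0.36 with a standard error of 0.108 (edgeR adjusted p = 0.0319; range of the alternatives 0.0319 to 0.934). Gclc lies on X from 8102181 to 8116147 and Gclm on 3R from 22685006 to 22686510, where it is a gene of 1 exon.

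The regulators cnc and Keap1 did not pass either. cnc stood at 129, 150.1, 153 and 154 CPM in CD replicates 1, 3, 4 and 5 and at 146, 135, 139 and 137 CPM in HSD replicates 1 to 4. CD replicate 1 was the lowest of all 8 libraries, and the other CD libraries were above all HSD libraries. The log2 fold change was −0.07 ± 0.0602 (standard error, edgeR adjusted p = 0.407). Without CD replicate 1 it was −0.12 (edgeR adjusted p = 0.0498), without CD replicate 1 and HSD replicate 4 together −0.11 (0.0425) and by library size alone −0.24 (0.0166; range of the alternatives 0.0166 to 0.885). cnc lies on 3R from 23185580 to 23226711 with 16 annotated transcripts, so the counts do not separate CncC from its shorter forms.

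Keap1 was the scarcest of the 10 genes, with 167 to 282 counts per library. It stood at 7.91, 9.33, 9.09 and 11.9 CPM in CD replicates 1, 3, 4 and 5 and at 12.1, 9.96, 11.9 and 13.5 CPM in HSD replicates 1 to 4. CD replicate 5 lay inside the HSD range, and the other CD libraries lay below it. The log2 fold change was 0.31 ± 0.128 (standard error, edgeR adjusted p = 0.0978), and without CD replicate 5 it was 0.43 (edgeR adjusted p = 0.0203; range of the alternatives 0.0203 to 0.410). Keap1 lies on 3R from 17073942 to 17079945.

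**Figure D2:**
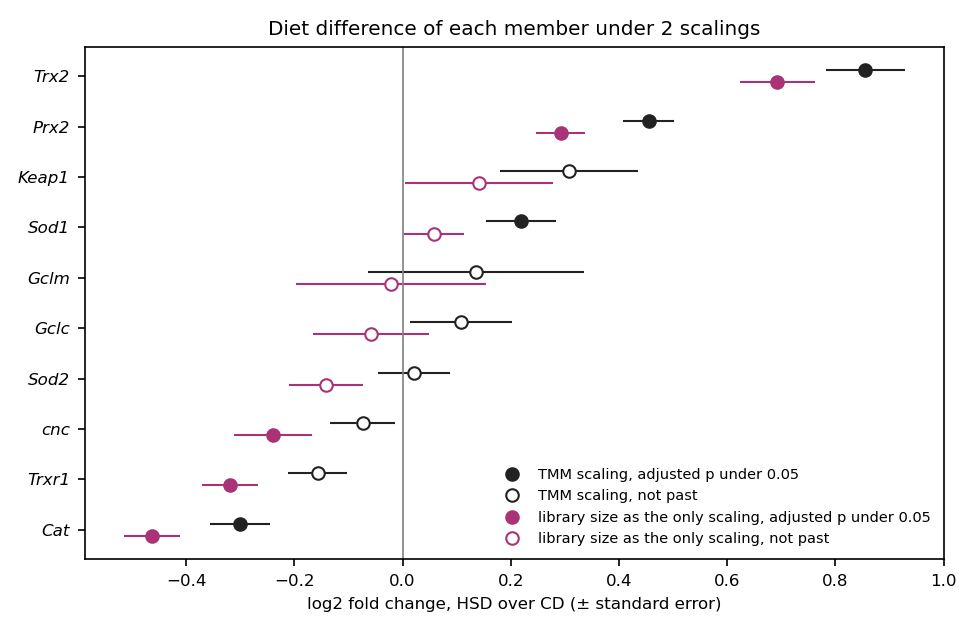
Log2 fold change of each gene, HSD over CD, with its standard error as a horizontal bar, under TMM scaling (black) and with library size alone (purple); filled points have an edgeR adjusted p under 0.05. Trx2 and Prx2 are to the right of 0 and Cat to the left under both scalings, while the values of Sod2, Gclc and Gclm change sign.

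All values shift together with the scaling. When libraries were scaled by total count alone, the median over all tested genes shifted by −0.16 on the log2 scale, and the share of higher calls went from 55.3% to 17.9%. Of the 10 genes, 2 were then higher (Trx2 and Prx2) and 3 lower (Cat, Trxr1 and cnc). The directions given here are therefore relative to the TMM scale.

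Ratios of 2 genes within a library do not depend on the scaling, and 4 of them were compared between the diets. The ratio of Trx2 to Trxr1 counts, a thioredoxin to its reductase, was 0.714, 0.725, 0.740 and 0.708 in CD replicates 1, 3, 4 and 5 and 1.49, 1.43, 1.28 and 1.62 in HSD replicates 1 to 4. CD libraries were close to each other, CD replicate 1 included, and HSD libraries were all higher. The ratio was 2.01-fold higher on HSD (exact two-sided permutation test, p = 0.0286, the smallest that 4 libraries against 4 allow; Benjamini-Hochberg adjusted over the 4 ratios p = 0.0571).

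The ratio of Sod1 to Sod2 was 2.66 ± 0.176 on CD and 3.06 ± 0.162 on HSD (SD, n = 4 each). It was higher in all 4 HSD libraries, by 1.15-fold (exact two-sided permutation test, p = 0.0286, adjusted p = 0.0571). The ratio of cnc to Keap1, a factor to its inhibitor, was 16.3, 16.1, 16.8 and 12.9 in CD replicates 1, 3, 4 and 5 and 12.0, 13.6, 11.6 and 10.2 in HSD replicates 1 to 4, so that only CD replicate 5 lay among the HSD values (exact two-sided permutation test, p = 0.0571, adjusted p = 0.0762).

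The ratio of Gclc to Gclm was 0.381, 0.860, 0.879 and 0.758 in CD replicates 1, 3, 4 and 5 and 0.710, 0.686, 0.659 and 0.589 in HSD replicates 1 to 4. CD replicate 1 was below every HSD library and the other CD libraries above all of them, and the diets did not differ beyond this spread (exact two-sided permutation test, p = 0.914, adjusted p = 0.914). The log2 difference was −0.053 over all libraries and −0.33 without CD replicate 1. No ratio passed the threshold after adjustment. Trx2 to Trxr1 and Sod1 to Sod2 were already at the smallest p that 4 libraries against 4 allow. A larger difference in these 2 ratios could not have lowered their adjusted p, so it does not decide whether they differ. A further ratio, of Prx2 to Cat, was chosen after the values had been seen and is given without a test. These genes encode a thioredoxin-dependent and a thioredoxin-independent remover of hydrogen peroxide, and their ratio was 1.27 ± 0.0286 on CD and 2.14 ± 0.128 on HSD (SD, n = 4 each), higher in every HSD library.

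**Figure D3:**
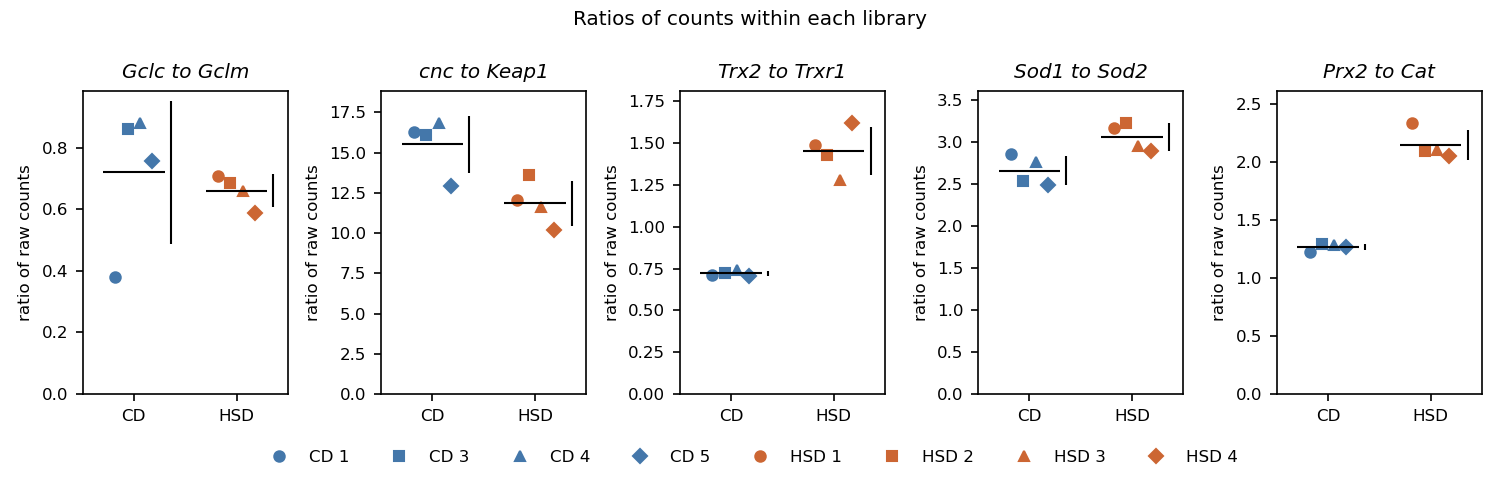
Ratio of raw counts of 2 genes in each library (vertical axes from 0), with each diet's mean as a horizontal line and ± 1 SD as a vertical bar. The Trx2 to Trxr1, Sod1 to Sod2 and Prx2 to Cat ratios are higher in all 4 HSD libraries, and CD replicate 1 (circle) is far below the other CD libraries for Gclc to Gclm.

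Per length of exon, Sod1 was the most abundant of the 10 transcripts on both diets. Its level was 388 ± 36.8 CPM per kb on CD and 452 ± 15.7 CPM per kb on HSD (SD, n = 4 each). On CD it was followed by Prx2 (283 ± 7.93 CPM per kb), Trx2 (187 ± 7.95), Cat (164 ± 7.94), Trxr1 (112 ± 6.36) and Sod2 (106 ± 7.21). Below these came Gclm (33.5 ± 10.0 CPM per kb), cnc (16.0 ± 1.30), Gclc (7.66 ± 1.09) and Keap1 (2.78 ± 0.494). The library ranges of neighbours in that order were apart except for Trxr1 and Sod2.

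On HSD the order was the same except that Sod2 (107 ± 8.84 CPM per kb) and Trxr1 (100.1 ± 4.02 CPM per kb) changed places, and their ranges overlapped again. Trx2 reached 338 ± 37.1 CPM per kb on HSD, where its range overlapped that of Prx2 (387 ± 7.99 CPM per kb). The enzymes of superoxide and peroxide removal were thus all above the ligase subunits and the regulators on both diets. Lengths are those of all annotated exons of a gene together, which overstate the transcript length for genes with many alternative exons such as cnc.

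**Figure D4:**
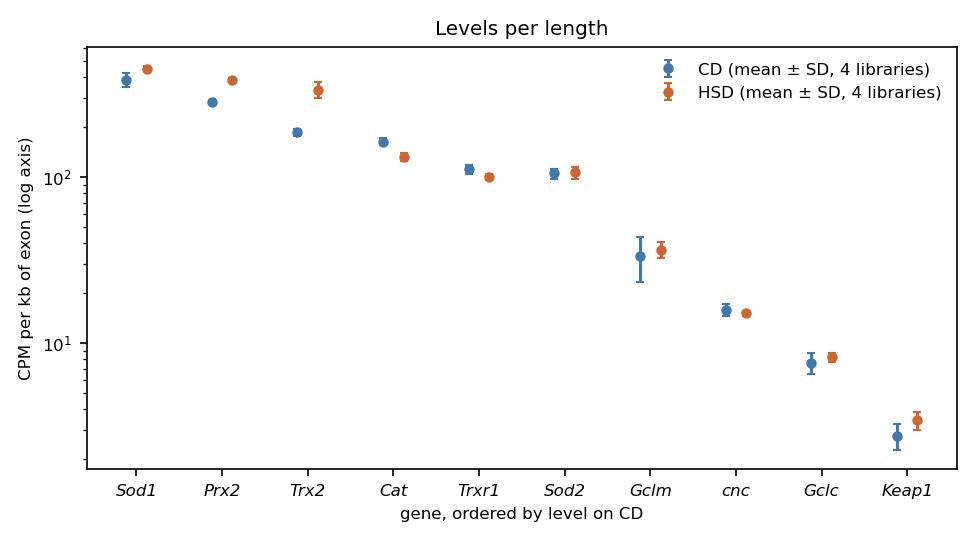
Mean level per kb of exon (CPM per kb, log axis) of each gene on CD and HSD, with ± 1 SD over 4 libraries, ordered by the CD level. Sod1 is highest and Keap1 lowest on both diets, and Trx2 is closer to Prx2 on HSD than on CD.

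In 7 wider lists around these genes 41 of 52 listed genes were tested, of which 10 rose, 7 fell and 24 did not pass the edgeR test, with a median log2 fold change of −0.09. Of all tested genes, for comparison, 14.4% were called higher and 11.6% lower, 26.0% in all. The lists are described by counts only. Among 11 tested other superoxide and peroxide enzymes 3 rose and 2 fell, with a median of 0.01. The immune-regulated catalase gene Irc rose 1.33-fold, reaching 176 ± 8.08 CPM against 133 ± 4.74 CPM on CD (SD, n = 4 each; edgeR adjusted p = 5.41e-05), in contrast to the value of Cat. The glutathione peroxidase-like gene Gtpx rose 1.24-fold (edgeR adjusted p = 0.00132), and Pxn, a peroxidase of the extracellular matrix that also served as a plasmatocyte marker, 1.19-fold (edgeR adjusted p = 0.00122; 0.141 by library size alone, range of the alternatives 4.06e-06 to 0.159).

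The peroxiredoxin gene Prx6c fell by 0.29 on the log2 scale (edgeR adjusted p = 0.0138), but it has the near copy Prx6b (log2 fold change −0.16, edgeR adjusted p = 0.198), and reads shared by the copies make both counts uncertain. Sod3, the extracellular superoxide dismutase, was named after its value had been seen. It was scarce, at 1.77 ± 0.289 CPM on CD and 0.921 ± 0.366 CPM on HSD (SD, n = 4 each, log2 fold change −0.93, edgeR adjusted p = 0.0291), and the call ended on leaving out CD replicate 1, 3 or 4, or HSD replicate 1 or 2 (with edgeR, adjusted p from 0.0508 to 0.0858; range of the alternatives 0.00825 to 0.182). Of the other peroxiredoxins, Prx3 in mitochondria and Prx4 in the secretory pathway had log2 fold changes of −0.14 and 0.06 (edgeR adjusted p = 0.129 and 0.534). None of 4 tested other thioredoxins and glutaredoxins passed the edgeR test, and 1 had an unadjusted p under 0.05. In other fits 1 was called higher by limma-voom with quality weights and by edgeR without CD replicate 1, with or without HSD replicate 4, and 1 was called lower by library size alone.

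Of 8 tested genes of glutathione and NADPH supply 3 rose and 1 fell, with a median of −0.08. All those called make NADPH. Idh, another gene of NADPH supply in this list, did not pass. It stood at 839 ± 25.0 CPM on CD and 811 ± 36.4 CPM on HSD (SD, n = 4 each, log2 fold change −0.05, edgeR adjusted p = 0.517). The malic enzyme gene Men rose most, at 1594, 1625, 1605 and 1359 CPM in CD replicates 1, 3, 4 and 5 and 4012, 4428, 4181 and 2730.3 CPM in HSD replicates 1 to 4 (log2 fold change 1.31 ± 0.144 as standard error; edgeR adjusted p = 0.000206). HSD replicate 4 was the lowest HSD library for Men and for the crystal cell, plasmatocyte and lamellocyte marker sums. CD replicate 5 was the lowest CD library for Men and the crystal cell sum, but the highest for the plasmatocyte and lamellocyte sums. The part of these cell types in the Men difference was not tested.

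Its paralog Men-b, for the mitochondrial malic enzyme, rose 1.45-fold (edgeR adjusted p = 9.96e-05). The pentose phosphate pathway was split: Pgd, for 6-phosphogluconate dehydrogenase, rose 1.35-fold to 239 ± 24.0 CPM (SD, n = 4, edgeR adjusted p = 0.00114), whereas Zw, for glucose-6-phosphate dehydrogenase at its entry, fell by 0.48 on the log2 scale to 8.47 ± 0.846 CPM (SD, n = 4, edgeR adjusted p = 0.00592). Exons of Zw share 14.7% of their length with an antisense gene. The glutathione synthetase genes Gss1 and Gss2, near copies of each other, had log2 fold changes of −0.11 and −0.10 (edgeR adjusted p = 0.2 and 0.211).

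None of the 6 partners and regulators of cnc passed the edgeR test, 2 of them had an unadjusted p under 0.05, and their median was −0.10. With limma-voom 1 was called, and by library size alone 5 were called lower. Without CD replicate 1, with or without HSD replicate 4, edgeR called 1 higher and 1 lower. The small Maf gene maf-S, whose product pairs with CncC on DNA, stood at 33.0 ± 5.27 CPM on CD and 38.7 ± 2.79 CPM on HSD (SD, n = 4 each, log2 fold change 0.23, edgeR adjusted p = 0.114). Its CD level was highest in CD replicate 1, and without that library the log2 fold change was 0.34 (edgeR adjusted p = 0.00336; range of the alternatives 0.00336 to 0.542). The autophagy adaptor gene ref(2)P, the fly p62, had a log2 fold change of −0.16 (edgeR adjusted p = 0.108; 0.0015 by library size alone, range of the alternatives 0.0015 to 0.509).

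Genes listed as known targets of CncC went both ways, with 3 of 9 tested higher, 2 lower and a median of −0.26. The median was above 0 where another filter changed which genes were tested, at 0.20 over 10 genes with no low-count filter and 0.26 over 4 genes with at least 5 CPM in 4 libraries. The juvenile hormone epoxide hydrolase gene Jheh1 rose 1.71-fold, reaching 57.7 ± 2.61 CPM against 33.8 ± 2.07 CPM on CD (SD, n = 4 each; edgeR adjusted p = 1.51e-06), and its exons lie wholly within those of an antisense gene. The glutathione S-transferase gene GstD7 rose 2.42-fold, reaching 20.03 ± 3.64 CPM against 8.31 ± 2.17 CPM on CD (SD, n = 4 each; edgeR adjusted p = 0.000399). GstD1, the most abundant of the targets, fell by 0.28 on the log2 scale with means of 1576 ± 156 CPM on CD and 1300.0 ± 120.3 CPM on HSD (SD, n = 4 each; edgeR adjusted p = 0.023), with CD replicate 1 highest at 1798 CPM. That call was lost on leaving out CD replicate 5, or HSD replicate 1, 2 or 3 (with edgeR, adjusted p from 0.0508 to 0.0700; range of the alternatives 0.00047 to 0.250). The GstD genes are similar to each other, so reads may be shared among them.

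The calls on the cytochrome P450 gene Cyp6a2 and on GstE1, which was named after its value had been seen, were near the threshold. Cyp6a2 had 19 to 66 counts per library and a log2 fold change of 0.86 (edgeR adjusted p = 0.0342), and the call ended on leaving out CD replicate 3 or 4, or HSD replicate 1, 2 or 4 (with edgeR, adjusted p from 0.0614 to 0.107, log2 fold change at least 0.68 without any 1 library; range of the alternatives 0.0103 to 0.107). GstE1 had a log2 fold change of −0.26 (edgeR adjusted p = 0.0497), and the call was lost without CD replicate 1, 4 or 5 or any HSD library (edgeR adjusted p from 0.0637 to 0.132, log2 fold change from −0.32 to −0.17 over all left-out libraries; range of the alternatives 0.0014 to 0.229).

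The methionine sulfoxide reductase genes, whose enzymes repair oxidised methionine, moved in opposite directions. MsrA stood at 13.8 ± 2.71 CPM on CD and 18.8 ± 2.78 CPM on HSD (SD, n = 4 each, log2 fold change 0.45, edgeR adjusted p = 0.0346), a call that ended on leaving out CD replicate 3, 4 or 5, or HSD replicate 1, 2 or 3 (with edgeR, adjusted p from 0.0618 to 0.0961; range of the alternatives 9.13e-06 to 0.0961). SelR fell by 0.36 on the log2 scale, to 27.3 ± 2.73 CPM against 35.1 ± 2.87 CPM on CD (SD, n = 4 each; edgeR adjusted p = 0.00506). Of the oxidant producers only ry, the xanthine dehydrogenase gene, had enough counts to be tested, and it fell by 0.47 on the log2 scale (edgeR adjusted p = 0.000697). The NADPH oxidase genes Duox and Nox peaked at 0.262 and 0.331 CPM over all libraries.

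**Figure D5:**
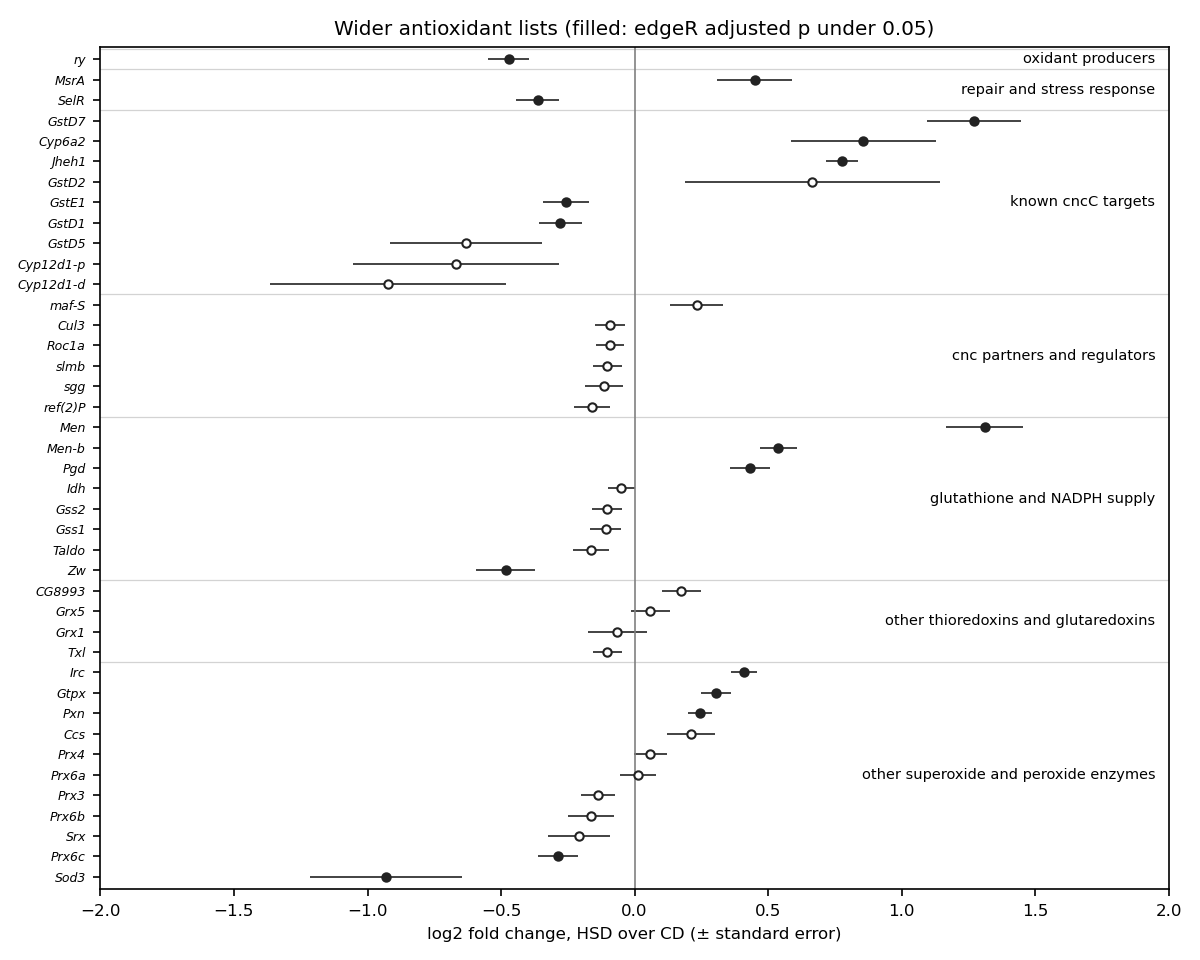
Log2 fold change, HSD over CD, with standard error, of the 41 tested genes of the 7 wider lists; filled points have an edgeR adjusted p under 0.05. Men and GstD7 are farthest to the right, the called genes lie on both sides of 0 in most lists, and none of the thioredoxin and glutaredoxin list or of the cnc partner list is filled.

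The genes whose levels followed cnc most closely over the 8 libraries were sought among the 5838 genes that averaged 10 CPM or more. By Pearson's r of log2 CPM these were Pak (0.98), a kinase gene, chb (0.97), for a microtubule-binding protein, Sec71 (0.97), enok (0.96), for a histone acetyltransferase, and CG6791 (0.95). CD replicate 1 was the lowest CD library for all 5, as for cnc, and none passed the diet test (edgeR adjusted p from 0.224 to 0.420). The r of cnc with the other 9 antioxidant genes ran from −0.85 for Sod1 to 0.63 for Gclc. These values are a description over 8 libraries that share their diets, depth and the deviation of CD replicate 1.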

How the data were processed

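The authors deposited raw counts of reads per gene, which were not normalized; the submitters' processing notes name Trim Galore 0.6.7, STAR 2.7.10a and featureCounts, and the dm6 build. How strand and multiply mapped reads were handled is not given in the sources used here. Poly(A) libraries had 18 PCR cycles without molecular identifiers, and the labels give 1 batch. The labels do not say whether replicates came from separate cultures, so the p-values reflect only the spread among the libraries, some of which may be technical. No libraries were duplicates (chi-square per degree of freedom within a diet from 7.19 to 118). Symbols, coordinates and exon lengths came from Ensembl's annotation of the same assembly.

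Genes were kept by filterByExpr (minimum count 10), scaled by TMM and tested with edgeR 4.0.16 in R 4.3.3 (robust quasi-likelihood, diet as the only term, Benjamini-Hochberg over 7844 genes). The test was checked on simulated counts that held no deviating library. Standard errors are the log2 fold change over the square root of its F statistic. Alternatives used DESeq2 1.42.0 and limma 3.58.1, other scalings and filters, and left-out libraries. The members and lists were chosen with earlier results of these data known. The text names the 10 members, up to 4 called genes per list by p, maf-S, ref(2)P, and the 5 genes most like cnc. Listed genes not in the table (Prx5, dhd, Trxr2 and Grx1t, and the markers betaTry and Cpr47Ef) were not analysed here.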

Additional observations from a re-analysis of the deposited data

Results flagged for a closer look

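In groups of 4 libraries, a library was singled out when its gap to the nearest other library, as a share of the group's range, exceeded Dixon's 95% critical value, and chance singles out about 1 in 20 groups. Of 30 groups examined (10 genes in CPM and 5 ratios on the log2 scale, on each diet) 4 met this, 3 of them in CD replicate 1. Cat in CD replicate 1 was at 350.4 CPM, above the other CD libraries, with a gap of 0.876 of the range. Sod1 in CD replicate 1 was at 325 CPM, also above the others, with a gap of 0.866. cnc in CD replicate 1 was at 129 CPM, below the others, with a gap of 0.84. The ratio of cnc to Keap1 in CD replicate 5 was 12.9, below the other CD libraries, with a gap of 0.83.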

How the results depend on the processing

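Trx2 and Prx2 kept their direction and their call under all 17 alternatives, with log2 fold changes of 0.69 to 0.90 and 0.29 to 0.49. Cat kept both under 16. Replicates 1, 3 and 4 share numbers across the diets, but the labels do not pair them. The deviations of same-numbered libraries correlated at −0.13, −0.07 and −0.18, and those of differently numbered libraries at −0.19 to 0.23. So few values cannot decide whether the libraries were paired, and the main test treated them as unpaired. With the replicate block, 589 of all genes were higher and 253 lower, 0 of the 10 antioxidant genes and 1 of the wider lists were lower, Cat had a log2 fold change of −0.32 (edgeR adjusted p = 0.0793), Sod1 0.21 (0.264), Gclc 0.23 (0.253) and Keap1 0.51 (0.0268), and the Trx2 to Trxr1 ratio kept its direction. In the wider lists the block ended the calls on Zw (−0.36, edgeR adjusted p = 0.123), SelR (−0.37, 0.0831) and Prx6c (−0.30, 0.0955), and those on Pxn, Sod3, GstD1, GstE1, Cyp6a2 and MsrA. With library size as the only scaling 690 genes were higher and 3161 lower, as were 3 antioxidant genes and 21 of the wider lists, and log2 fold changes were 0.058 for Sod1, −0.14 for Sod2 (0.102), −0.32 for Trxr1, −0.059 for Gclc (0.671), −0.021 for Gclm (0.931) and −0.24 for cnc. Limma-voom called 1430 genes lower. Of the antioxidant genes 2 were lower with limma-voom, RLE scaling, DESeq2 and a filter of 5 CPM in 4 libraries, Trxr1 being the added call at −0.14, −0.16, −0.16 and −0.15. Without CD replicate 1 and HSD replicate 4 together 3 were lower, Trxr1 at −0.14 (0.0252) and cnc at −0.11. The cause was not tested.

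Leaving out each library in turn, 2 to 4 antioxidant genes were higher and 1 to 2 lower, and 4 to 7 of the wider lists were lower. Log2 fold changes ran from 0.19 to 0.30 for Sod1, −0.026 to 0.060 for Sod2 (below 0 without CD replicate 4 at −0.023 and without HSD replicate 4 at −0.026), −0.18 to −0.12 for Trxr1, 0.028 to 0.18 for Gclc, 0.028 to 0.36 for Gclm, −0.12 to −0.049 for cnc and 0.24 to 0.43 for Keap1. For the ratios such subsets cannot reach the threshold (smallest p 0.0571). The log2 difference of the Gclc to Gclm ratio, −0.053 over all libraries, ran from −0.33 without CD replicate 1 to 0.068 without CD replicate 4, and it was also above 0 without CD replicate 3 (0.057) and without HSD replicate 4 (0.0014). The other ratios kept their direction.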
